A study of Bos taurus with 5 samples.

Results

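The 74 genes described here had moderately higher signals in the second-largest follicle (F2) than in the largest follicle (F1) of the bovine ovary. They were chosen by their own measured values. A probe with a RefSeq mRNA accession had to be well above background and not saturated on all 5 arrays, both F2 had to lie above every F1, and the ratio of the F2 to the F1 geometric mean had to be at least 2 and under 7. Of 10163 single probes on the array, 1415 carried such an accession, 737 of these met the conditions on background and saturation, and 74 met the whole rule (10.0% of 737). Because the F1 against F2 contrast made the selection, the differences below are a description and carry no test.

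Each array held total RNA of 1 whole follicle wall, that is the granulosa cells and the theca interna, after the stroma and theca externa had been dissected away. The 3 F1 and 2 F2 came from pregnant Japanese Black cows, whose age, phase of the follicular wave and any treatment are not given in the sources used here. The follicles of the study came from 4 cows, some of which provided a follicle of each kind. At least 1 of the arrayed F2 therefore had an F1 of the same cow beside it, and the follicles are not fully independent. RNA was labelled with Cy3 and hybridized to a custom array of 60-base oligonucleotides in a single color. In wall RNA of this kind, a lower signal from fewer cells of a type and from less RNA per cell cannot be told apart. A p-value here sets the difference between F1 and F2 against the spread between these follicles, taken as independent. It covers these follicles and no more.

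A follicle of the cow enlarges under the gonadotropins FSH and LH, with granulosa cells that make estradiol from the androgen of the theca cells. Follicles that are not selected stop growing and undergo atresia, in which granulosa cells die, macrophages and other leukocytes enter the wall, and matrix and vessels are rebuilt. The genes below include innate immune receptors, matrix proteins, a plasminogen activator, cytoskeletal proteins and cholesterol carriers.

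Signals are given as multiples of the array's GAPDH median, taken over its 100 spots for this glycolytic gene, which the study used as reference, and always in the order F1 replicates 1, 2 and 3, then F2 replicates 1 and 2. A ratio is the F2 geometric mean over the F1 geometric mean on that scale. The brightness of a probe also depends on its sequence, so levels of single genes were not compared with each other. Sums over marker genes, given below, are set mostly by their brightest probes. The GAPDH median lay between 868.7 and 1411 intensity units, and each array had from 5465 to 5855 probes well above background. Over the 737 eligible genes the median ratio was 0.856 on the GAPDH scale and 0.991 when each array was divided by its 75th percentile instead, so the 74 genes stand against a general shift toward lower F2 signals on the GAPDH scale.

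Across the 737 eligible genes, both F2 lay above every F1 in 154 genes (20.9%), and both lay below in 248 (33.6%). Turned around to take genes moderately higher in the F1, the same rule gave 64 genes (8.68%). Ratios of the 74 genes had a median of 2.83. There were 34 genes with a ratio of 3 or more and 9 with 5 or more. The lowest F2 signal was at least 2 times the highest F1 signal in 31 of the 74 genes, and under 1.5 times in 22. The smallest such gap was 1.03-fold, in CCN2, and the largest was 5.19-fold, in TSPO.

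**Figure D1:**
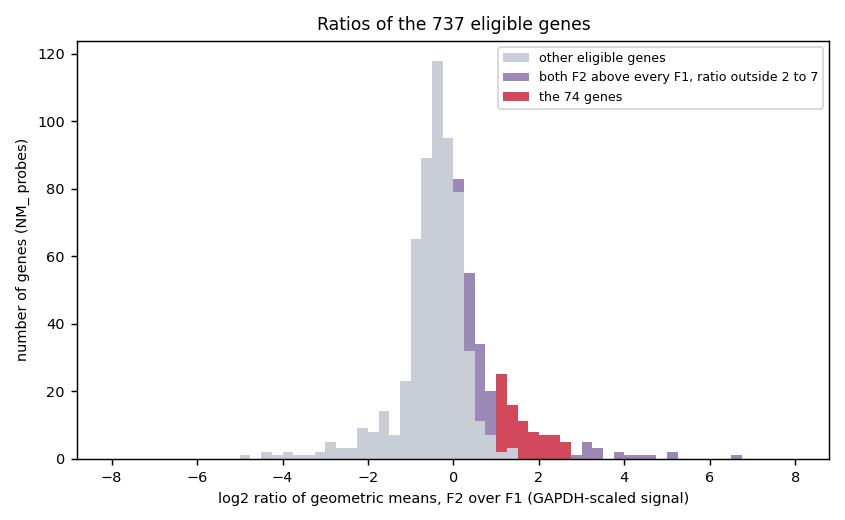
Number of eligible genes (y axis) by the log2 ratio of the F2 to the F1 geometric mean (x axis), on GAPDH-scaled signals of 3 F1 and 2 F2. The 74 genes in red lie between ratios of 2 and 7 and continue into 17 genes with larger ratios, while most of the 737 genes lie just below a log2 ratio of 0.

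The ends of the rule cut through a continuous range. Just inside the upper end were TYROBP (6.22), MYO10 (6.11) and THBS1 (5.91), and just outside it were MGP (7.09), PLAT (8.39) and SERPING1 (8.44), which encode matrix Gla protein, tissue plasminogen activator and the C1 inhibitor. The signals of PLAT were 2.18, 0.912 and 0.913 in the F1, against 14.8 and 7.09 in the F2, and those of SERPING1 were 0.299, 0.676 and 0.294, against 3.16 and 3.43. In both, the groups were well apart. Just inside the lower end were PROCR (2.03), UACA (2.02) and FTL (2.02), and just outside it were CORO1A (1.99), CHRNB1 (1.97) and YWHAG (1.97). CORO1A, an actin-binding protein of leukocytes, measured 0.1295, 0.175 and 0.0971 in the F1, against 0.263 and 0.254 in the F2. CHRNB1, a subunit of the muscle acetylcholine receptor, measured 0.0490, 0.0402 and 0.0352, against 0.0610 and 0.108, and YWHAG, a 14-3-3 protein, measured 0.0797, 0.0725 and 0.0679, against 0.137 and 0.152. Their groups were separate too, so the lower limit alone left them out. Another 5 genes had a ratio within the limits but F2 signals that overlapped the F1, namely OXT, IGFBP3, HOPX, FOS and PEG3.

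Every value comes from a single 60-base probe, and no other probe on the array shared a run of 30 bases with any of the 74 probes or matched the symbol of any of the 72 genes that have one. The other 2, NM_004995 and NM_174839, could not be compared by symbol, so another probe of either gene may be on the array. Stretches of 30 bases of the probe are shown for the genes with the largest and the smallest ratio, TYROBP and FTL, and for AIF1, CD34 and PTN as further probes that hold the letters AATAAA. Capitals mark AATAAA, the hexamer that precedes the poly(A) tail of many mRNAs, searched on the printed strand alone. A match is no evidence that the hexamer is in use or where the transcript ended, and TYROBP is printed from base 1 of the probe, which held no such hexamer.
TYROBP: cacacagaggccgtattacaaatgagtcca
FTL: ccttggaccatatggaaacAATAAAgcttt
AIF1: cagactaacttaAATAAAttatcctccttc
CD34: ttttgttttgtttttctgAATAAAacatgc
PTN: caaagcagcAATAAAatatgatcatcctat
The stretches run from base 31 to 60 in FTL and CD34, from 26 to 55 in AIF1 and from 1 to 30 in PTN. The hexamer was present in the probes of 10 of the 74 genes (13.5%), of 108 of the other 663 eligible genes (16.3%) and of 184 of all 1415 probes with such an accession (13.0%). The median GC content was 43.3% in the probes of the 74 genes, against 45.0% in the other eligible probes.

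**Figure D2:**
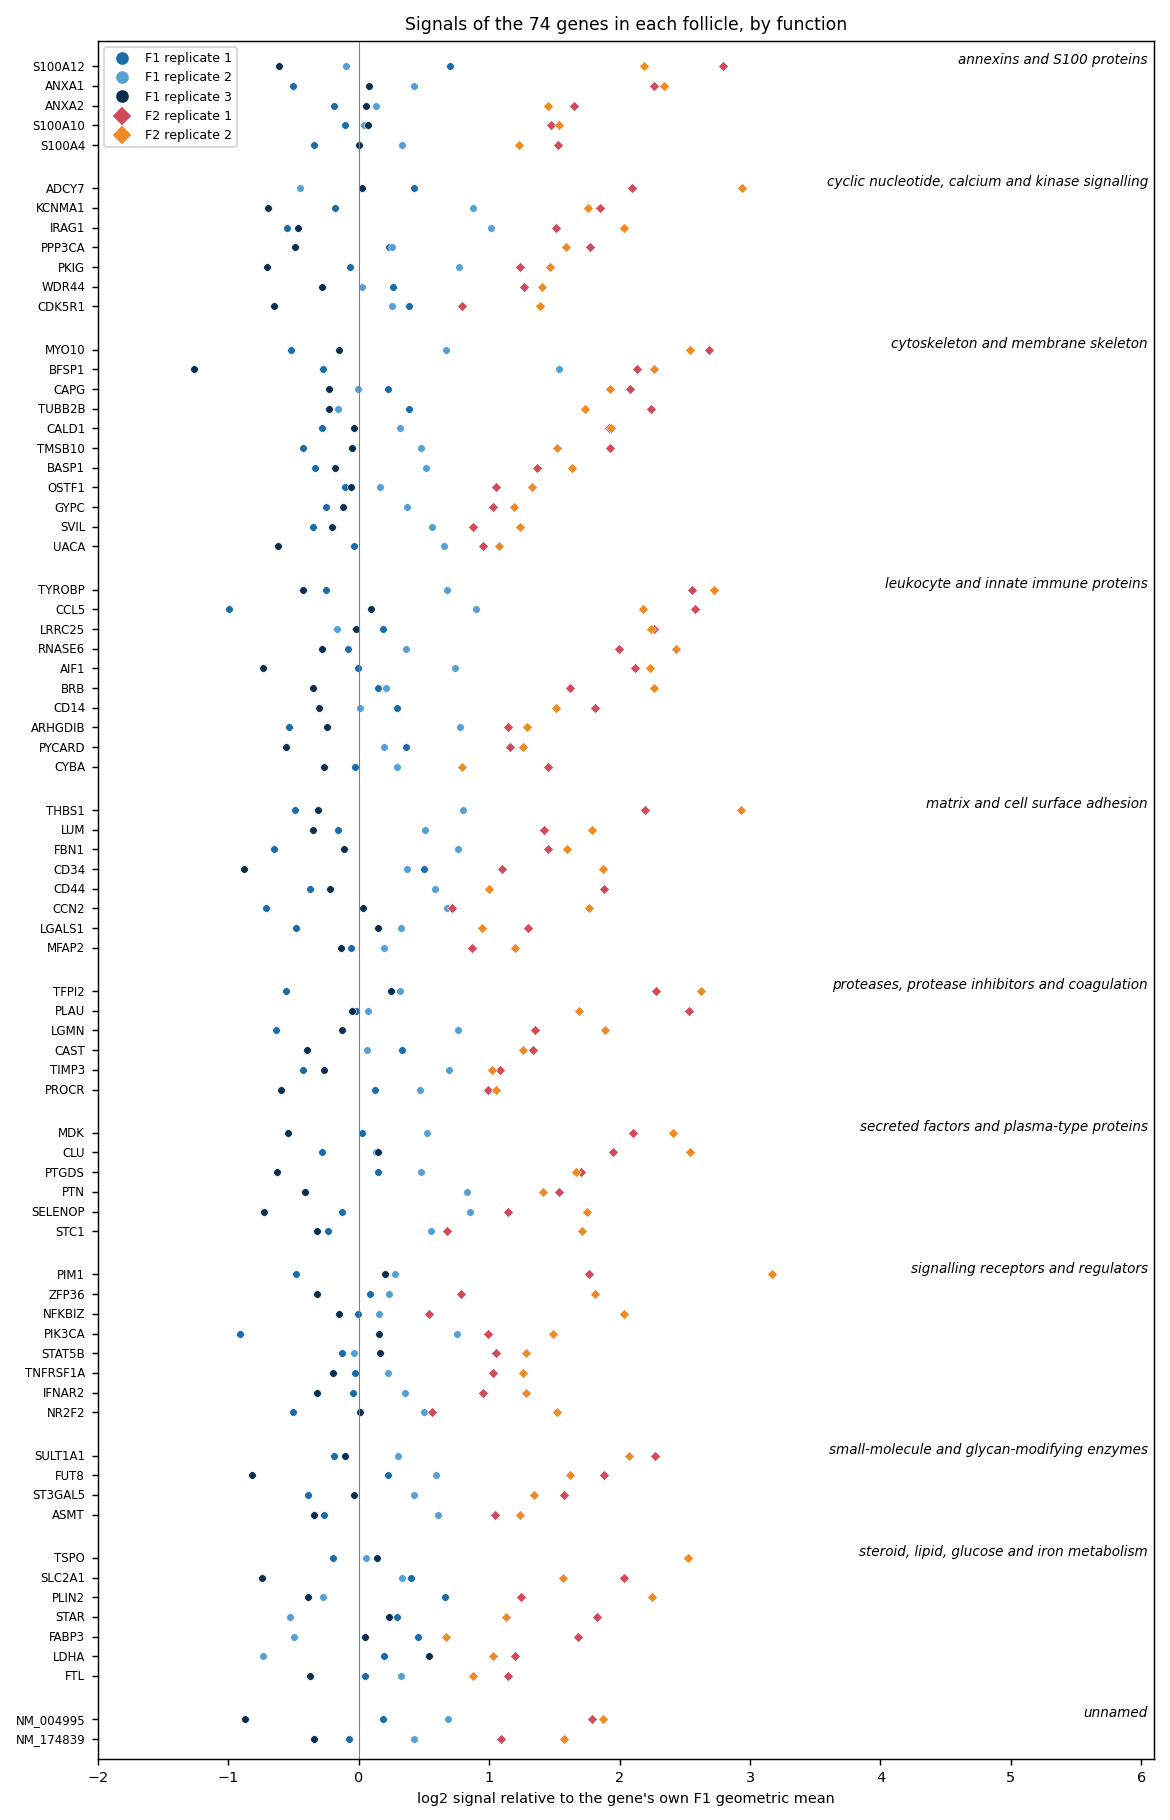
Log2 signal of each of the 74 genes in each follicle, relative to the geometric mean of the gene in the F1 (x axis), with genes grouped by function (y axis). Circles are the 3 F1 and diamonds the 2 F2. In every gene both diamonds lie to the right of all circles, which the rule required, and F1 replicate 2 is the rightmost circle in 54 of the 74 genes.

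The 10 genes of leukocytes and innate immunity had ratios from 2.18 in CYBA to 6.22 in TYROBP, with a median of 4.18. These values depended on the background correction. With normexp, which adds an offset to weak signals, the median was 1.85, TYROBP was at 1.79 and 7 of the 10 ratios lay under 2. TYROBP, the adaptor through which activating receptors of myeloid and natural killer cells signal, gave 0.0236, 0.0447 and 0.0209 (F1) and 0.165 and 0.185 (F2). The lower F2 signal was 3.68 times the highest F1 signal, and the F2 lay close together. CCL5, a chemokine that attracts T cells and monocytes, gave 0.0865, 0.321 and 0.183 (F1) and 1.03 and 0.779 (F2), a ratio of 5.21. Its F1 were spread 3.71-fold, with F1 replicate 2 the highest. For LRRC25, a leucine-rich repeat membrane protein, the signals were 0.0608, 0.0476 and 0.0526 (F1) and 0.257 and 0.252 (F2), a ratio of 4.77. This was the tightest pattern of the group, with F2 that differed by 1.02-fold and a gap of 4.15-fold to the nearest F1.

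Both ribonucleases of the RNase A family on the list were placed in this group when functions were assigned, so their presence here is no result. RNASE6, an antimicrobial ribonuclease of myeloid cells, measured 0.0903, 0.123 and 0.0784 (F1) and 0.381 and 0.514 (F2), a ratio of 4.63, and BRB, the bovine brain ribonuclease, measured 0.0944, 0.0986 and 0.0669 (F1) and 0.262 and 0.411 (F2), a ratio of 3.84. In each of them F2 replicate 2 was the higher F2. AIF1, a calcium-binding protein of macrophages also known as Iba1, had signals of 0.0416, 0.0700 and 0.0252 (F1) and 0.182 and 0.197 (F2), a ratio of 4.52. CD14, the co-receptor for lipopolysaccharide on monocytes and macrophages, had signals of 0.0488, 0.0401 and 0.0322 (F1) and 0.140 and 0.113 (F2), a ratio of 3.17. The F2 of AIF1 and of CD14 stood at more than 2 times every F1. ARHGDIB, a protein of blood cells, PYCARD, the adaptor of inflammasomes, and CYBA, a membrane subunit of the phagocyte NADPH oxidase, had ratios from 2.18 to 2.32.

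Among the markers of macrophages and myeloid cells, 4 genes had a probe and 3 of them, AIF1, CD14 and TYROBP, are among the 74. Limma called these 3 of the 4 markers higher in the F2, which repeats the contrast that selected them. The remaining marker, FCER1G, which like TYROBP encodes an adaptor of activating receptors, gave 0.0281, 0.0342 and 0.0248 in the F1, against 0.0196 and 0.0237 in the F2. Both F2 of FCER1G thus lay below every F1. The summed signal of the 4 markers was 0.103 to 0.189 in the F1, against 0.506 and 0.518 in the F2. Of 4 lymphocyte markers, only CD79A was well above background on all 5 arrays, and it made up most of their sum, which was 0.224 to 0.363 in the F1, against 0.258 and 0.273 in the F2. The T cell marker CD3E was well above background in both F2 (0.034 and 0.024) and in 0 F1 (-0.025, -0.027 and 0.0029). Limma called CD3E higher in the F2 (adjusted p = 0.00526), as the 1 call among the 2 lymphocyte markers tested. Its negative F1 signals were raised to 0.001 for the fit. The p-value therefore depends on these raised values and does not reflect a measured spread between the F1. The difference in CD3E is at least 1.71-fold. The part of immune cells in the signals of this group was not tested.

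Marker levels of other follicle cells differed between the same groups. The summed signal of 7 granulosa markers was 216.6 to 295.2 in the F1, against 14.5 and 19.6 in the F2, and limma called all 7 higher in the F1. Probes of 4 of them were saturated in F1 arrays, INHBA and INHA on all 3, FST on 2 and GJA1 on 1, so the F1 sums are lower bounds. Of the 7, FSHR was well above background in neither F2 and CYP19A1 in 1 of them, so defining markers of the labelled granulosa layer were at background in at least 1 F2. The sum of 6 theca markers was 69.3 to 105.2 in the F1, against 33.3 and 30.1 in the F2. Much of the F1 sum came from INSL3, which was saturated on 2 F1 arrays, while STAR, 1 of the 74 genes, was higher in the F2, and HSD3B1, a steroid dehydrogenase, measured 9.84, 8.77 and 9.41 in the F1, against 2.94 and 10.5 in the F2. For 7 endothelial markers the sum was 0.157 to 0.2496 in the F1, against 0.763 and 1.11 in the F2, which came mostly from SELP. The groups overlapped in TEK, at 0.0749, 0.107 and 0.0591 (F1) and 0.0825 and 0.162 (F2). They also overlapped in TIE1, at 0.0310, 0.0382 and 0.0313 (F1) and 0.0230 and 0.0357 (F2). PECAM1, well above background on 3 arrays, had 0.00772, 0.0207 and 0.0182 (F1) and 0.0211 and 0.0330 (F2). CDH5, EDNRB and SELE were not well above background on any array. Sums of 5 fibroblast markers were 5.70 to 9.52 in the F1, against 10.1 and 17.1 in the F2, with OGN not well above background on any array. Of these markers, LUM and FBN1 are among the 74 genes and so were selected for higher F2 signals. The largest part of each sum was DCN, whose groups overlapped, at 3.74, 6.87 and 4.41 in the F1, against 5.77 and 12.2 in the F2. Probes for HBB of red blood cells and for GDF9, DDX4, NLRP5 and ZP4 of the oocyte were not well above background on any array. The part of these cells in the signals of the 74 genes was not tested.

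Limma, fitted across 5528 probes with Benjamini-Hochberg adjustment at 0.05, called 281 probes higher in the F2 (5.08%) and 353 higher in the F1 (6.39%), with a median log2 difference (F2 minus F1) of -0.27 over all probes tested. These shares are the background for the lists of related genes below. Where a list contains some of the 74 genes, their calls are not independent of their selection. Limma made 634 calls with all follicles, 160 without F2 replicate 1, 200 without F2 replicate 2 and 344 without F1 replicate 1, and of the 634 calls 92, 159 and 320 were among these. Where limma made 0 calls toward the F1 or the F2 in a list below, 0 genes of it passed at an unadjusted p under 0.05 in that direction either, unless a count is given.

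The 11 cytoskeletal genes ranged in ratio from 2.02 to 6.11 with a median of 3.30. MYO10, an unconventional myosin that carries cargo to the tips of filopodia, gave 0.359, 0.821 and 0.464 (F1) and 3.32 and 2.99 (F2). Its highest F1 was replicate 2, and the lower F2 was 3.64 times as high. BFSP1, the lens filament protein filensin, gave 0.0377, 0.132 and 0.0190 (F1) and 0.200 and 0.218 (F2), a ratio of 4.59. It had the widest spread of all 74 genes among the F1, 6.98-fold, and its ratio was 7.82 without F1 replicate 2 and 2.96 without F1 replicate 3. CAPG, which caps actin filaments and is abundant in macrophages, showed 0.474, 0.404 and 0.346 (F1) and 1.72 and 1.54 (F2), a ratio of 4.01, and TUBB2B, a beta-tubulin, showed 1.37, 0.940 and 0.895 (F1) and 4.95 and 3.49 (F2), a ratio of 3.97. In both, replicate 1 was the highest F1 and also the higher F2. CALD1, which encodes the actin- and myosin-binding caldesmon, measured 0.163, 0.248 and 0.194 (F1) and 0.753 and 0.759 (F2), a ratio of 3.80. The F2 of CALD1 were almost equal. TMSB10, a thymosin that binds actin monomers, BASP1, OSTF1, GYPC, which anchors the membrane skeleton, and SVIL, which links actin to the membrane, had ratios from 2.08 to 3.30. UACA, a coiled-coil protein at the lower limit, measured 0.942, 1.52 and 0.630 (F1) and 1.87 and 2.04 (F2).

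The 5 genes of the annexins and S100 proteins, families that mostly bind calcium, although S100A10 does not, had ratios from 2.60 to 5.62. S100A12, a protein of granulocytes and monocytes, gave 0.164, 0.0945 and 0.0662 (F1) and 0.701 and 0.459 (F2), a ratio of 5.62. ANXA1, known to dampen leukocyte entry, gave 0.553, 1.06 and 0.829 (F1) and 3.78 and 3.98 (F2), a ratio of 4.94. F2 replicate 1 was the higher F2 in S100A12, and the F2 of ANXA1 differed by 1.05-fold. ANXA2 and S100A10 form a complex at the cell surface that binds plasminogen. ANXA2 measured 3.28, 4.12 and 3.89 (F1) and 11.8 and 10.2 (F2), a ratio of 2.93, and S100A10 measured 0.697, 0.772 and 0.788 (F1) and 2.09 and 2.17 (F2), a ratio of 2.84. The rule confined both ratios to the same range, so their similar size says nothing about the complex. The F1 were spread 1.25-fold in ANXA2 and 1.13-fold in S100A10. S100A4, which binds nonmuscle myosin, had signals of 0.109, 0.174 and 0.139 (F1) and 0.398 and 0.323 (F2), a ratio of 2.60.

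Of 7 tested genes of the actin list, limma called 3 higher in the F2 and 0 higher in the F1, and all 3, CALD1, CAPG and TMSB10, are among the 74 genes. The list of intermediate filaments, tubulins, annexins and S100 proteins had 9 tested genes, of which 6 were called higher in the F2 and 0 higher in the F1, again all 6 from the 74. The median log2 difference of the actin list was 0.45, with 3 of its 7 tested genes selected for higher F2 signals. In the other list it was 1.504, with 6 of 9 so selected, so that median follows from the selection. No gene outside the 74 was called in either list.

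The 8 genes of matrix and cell surface adhesion had ratios from 2.05 to 5.91. THBS1, a matricellular protein that restrains vessel growth and activates latent TGF-beta, gave 0.404, 0.986 and 0.454 (F1) and 2.59 and 4.31 (F2). F2 replicate 2 was the higher F2. LUM, the small proteoglycan lumican, gave 1.02, 1.62 and 0.896 (F1) and 3.06 and 3.93 (F2), a ratio of 3.04. FBN1, the main protein of microfibrils, had 0.0654, 0.175 and 0.0951 (F1) and 0.281 and 0.311 (F2), a ratio of 2.88, and its partner MFAP2 had 3.68, 4.39 and 3.48 (F1) and 6.995 and 8.81 (F2), a ratio of 2.05. In all of these genes F1 replicate 2 was the highest F1 and F2 replicate 2 the higher F2, although on the 75th percentile scale MFAP2, LUM and FBN1 were 0.980-, 1.001- and 0.859-fold in F2 replicate 2 relative to F2 replicate 1. CD34, a sialomucin of endothelial and stem cells, measured 0.359, 0.328 and 0.138 (F1) and 0.541 and 0.927 (F2), a ratio of 2.80, while CD44, the receptor for hyaluronan, measured 0.0718, 0.140 and 0.0798 (F1) and 0.342 and 0.186 (F2), a ratio of 2.71. Their F2 differed in opposite directions, with replicate 2 higher in CD34 and replicate 1 higher in CD44. CCN2, the connective tissue growth factor, had signals of 1.05, 2.75 and 1.754 (F1) and 2.82 and 5.83 (F2), a ratio of 2.36. F1 replicate 2 nearly reached F2 replicate 1 in CCN2. LGALS1, the beta-galactoside-binding galectin-1, had a ratio of 2.18.

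In the list of collagens and fibrillar matrix, 2 of 9 tested genes were called higher in the F2, and 0 higher in the F1. They were THBS1 and MGP, an inhibitor of calcification that lay just above the limit of the rule, whose signals were 3.68, 11.2 and 4.06 in the F1, against 30.4 and 50.3 in the F2 (log2 change 2.83, SE 0.55, limma adjusted p = 0.0252). Among 7 tested proteoglycan and hyaluronan genes, limma called LUM higher in the F2. Another 2 were called higher in the F1, among them VCAN, the large proteoglycan versican, with 4.08, 2.41 and 2.49 in the F1, against 0.236 and 0.409 in the F2 (log2 change -3.22, SE 0.39, limma adjusted p = 0.00493). Matrix genes thus differed in direction. COL1A2, a chain of fibrillar collagen, measured 0.871, 0.851 and 0.901 in the F1, against 0.964 and 0.638 in the F2, with 1 F2 above and 1 below all F1.

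The 6 genes of proteolysis and coagulation had ratios from 2.03 to 5.46. TFPI2, a Kunitz inhibitor of plasmin and trypsin secreted into the matrix, gave 0.183, 0.334 and 0.319 (F1) and 1.30 and 1.66 (F2), a ratio of 5.46. PLAU, the urokinase that turns plasminogen into plasmin, gave 0.144, 0.154 and 0.141 (F1) and 0.845 and 0.470 (F2), a ratio of 4.31. The F1 of PLAU differed by 1.09-fold, while F2 replicate 1 was 1.80 times F2 replicate 2. LGMN, a lysosomal asparaginyl protease, gave 0.445, 1.17 and 0.631 (F1) and 1.76 and 2.55 (F2), a ratio of 3.07. CAST, the calpain inhibitor calpastatin, gave 0.723, 0.6002 and 0.435 (F1) and 1.45 and 1.37 (F2), a ratio of 2.46. The highest F1 was replicate 2 in LGMN and replicate 1 in CAST. TIMP3, a matrix-bound inhibitor of metalloproteases, showed 0.0659, 0.143 and 0.0737 (F1) and 0.188 and 0.180 (F2), a ratio of 2.08. The endothelial receptor for protein C, PROCR, showed 0.0625, 0.0793 and 0.0379 (F1) and 0.114 and 0.119 (F2), a ratio of 2.03. The F2 differed by 1.04-fold in each, while the F1 were spread 2.17-fold in TIMP3 and 2.09-fold in PROCR.

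The list of matrix proteases and inhibitors had 14 tested genes, and limma called 7 higher in the F2, with PLAU and TFPI2 among them, and 1 higher in the F1. The median log2 difference of the list was 1.58. The receptor of PLAU had a difference above the limit of the rule. PLAUR, the receptor, was measured well above background in both F2 and in 2 of the 3 F1, with 0.0170, 0.0344 and 0.0217 in the F1, against 3.38 and 1.18 in the F2 (log2 change 6.42, SE 0.53, limma adjusted p = 0.00112). F2 replicate 1 was the higher F2, as in PLAU. TIMP1, an inhibitor of metalloproteases, was 0.533, 0.675 and 0.542 in the F1, against 14.3 and 7.52 in the F2 (log2 change 4.16, SE 0.36, limma adjusted p = 0.00126). The gene called higher in the F1 was SERPINE2, an inhibitor of thrombin and plasminogen activators, at 69.8, 80.4 and 48.5 in the F1, against 6.42 and 13.6 in the F2. Its probe was saturated on all 3 F1 arrays, and the F1 over F2 difference is therefore at least 6.93-fold (adjusted p = 0.0108 by limma). Of 9 tested lysosomal proteins, LGMN among them, 0 passed limma after adjustment, while at an unadjusted p under 0.05, 2 passed toward the F2 and 1 toward the F1.

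The 6 secreted proteins had ratios from 2.29 to 4.79. MDK and PTN, the midkine family of heparin-binding growth factors, were both present. MDK gave 0.0978, 0.138 and 0.0659 (F1) and 0.414 and 0.512 (F2), a ratio of 4.79, and PTN gave 0.405, 0.957 and 0.405 (F1) and 1.57 and 1.44 (F2), a ratio of 2.78. F1 replicate 2 was the highest F1 of each, and the gap to the F2 was larger in MDK. CLU, the secreted chaperone clusterin, which also restrains complement, had signals of 5.64, 7.54 and 7.63 (F1) and 26.6 and 40.0 (F2), a ratio of 4.74. PTGDS, the lipocalin-type prostaglandin D synthase, had signals of 2.74, 3.43 and 1.60 (F1) and 8.05 and 7.81 (F2), a ratio of 3.21. The F2 of CLU differed by 1.51-fold and those of PTGDS by 1.03-fold. SELENOP, a selenium transport protein, measured 2.85, 5.63 and 1.88 (F1) and 6.87 and 10.5 (F2), a ratio of 2.73, and STC1, the glycoprotein hormone stanniocalcin, measured 0.493, 0.851 and 0.465 (F1) and 0.926 and 1.90 (F2), a ratio of 2.29. F1 replicate 2 came close to F2 replicate 1 in SELENOP and STC1, with gaps of 1.22-fold and 1.09-fold. In the list of complement and innate immunity, 2 of 5 tested genes, CD14 and CLU, were called higher in the F2 and 0 higher in the F1. The chemokine and cytokine list had 10 tested genes with 5 called higher in the F2 and 0 higher in the F1. The call from the 74 was CCL5, and a called chemokine outside them was CCL2, which attracts monocytes, at 0.0444, 0.0928 and 0.0264 in the F1, against 0.592 and 0.488 in the F2 (log2 change 3.49, SE 0.53, limma adjusted p = 0.0115).

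Receptors and regulators of signalling, among them cytokine receptors and cytokine-induced regulators, made up 8 genes with ratios from 2.06 to 5.52, of which only PIM1 exceeded 3. PIM1, a serine/threonine kinase induced through JAK and STAT signalling, gave 0.103, 0.174 and 0.165 (F1) and 0.486 and 1.29 (F2), a ratio of 5.52. ZFP36, which destabilises cytokine mRNAs, gave 0.249, 0.276 and 0.188 (F1) and 0.404 and 0.826 (F2), a ratio of 2.46, and NFKBIZ, a nuclear partner of NF-kappaB, gave 0.0990, 0.111 and 0.0894 (F1) and 0.145 and 0.407 (F2), a ratio of 2.44. In these genes F2 replicate 2 was more than 2 times F2 replicate 1 on the GAPDH scale, and F2 replicate 1 was the nearer to the F1. Leaving out F2 replicate 1 gave a ratio of 4.10 in NFKBIZ and 8.99 in PIM1. Leaving out F2 replicate 2 gave 1.46 in NFKBIZ, under the limit of the rule, and 3.39 in PIM1. PIK3CA, a catalytic subunit of phosphoinositide 3-kinase, measured 0.0335, 0.106 and 0.0700 (F1) and 0.125 and 0.176 (F2), a ratio of 2.36. STAT5B, a transcription factor downstream of growth hormone and prolactin receptors, measured 0.0384, 0.0410 and 0.0472 (F1) and 0.0872 and 0.102 (F2), a ratio of 2.24. The F1 of PIK3CA were spread 3.16-fold, and those of STAT5B much less. TNFRSF1A, the main receptor of TNF, IFNAR2, a chain of the type I interferon receptor, and NR2F2, an orphan nuclear receptor, had ratios from 2.06 to 2.21. Of 5 tested genes in the list of immediate early and NF-kappaB related factors, NFKBIZ and ZFP36 among them, 0 passed limma after adjustment, and 2 were higher in the F2 at an unadjusted p under 0.05. Both tested genes of the interferon response list were called higher in the F1, ISG15, a ubiquitin-like protein (log2 change -2.51, SE 0.47, limma adjusted p = 0.0219), and MX1, an antiviral GTPase (log2 change -1.88, SE 0.31, limma adjusted p = 0.0150), whereas the interferon receptor chain IFNAR2 was 2.17-fold higher in the F2 by selection.

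The 7 genes of cyclic nucleotide, calcium and kinase signalling had ratios from 2.13 to 5.72. ADCY7, an adenylyl cyclase, gave 0.0384, 0.0210 and 0.0293 (F1) and 0.123 and 0.220 (F2), a ratio of 5.72. KCNMA1, the pore of the calcium-activated BK potassium channel, gave 0.0558, 0.116 and 0.0391 (F1) and 0.228 and 0.214 (F2), a ratio of 3.50. IRAG1, a substrate of the cGMP-dependent kinase that restrains calcium release, gave 0.169, 0.498 and 0.179 (F1) and 0.703 and 1.01 (F2), a ratio of 3.41. The lowest F1 of ADCY7 was replicate 2, which was the highest in KCNMA1 and IRAG1. PPP3CA, the catalytic subunit of calcineurin, measured 0.185, 0.189 and 0.113 (F1) and 0.540 and 0.474 (F2), a ratio of 3.21, and PKIG, an inhibitor of protein kinase A, measured 0.325, 0.581 and 0.210 (F1) and 0.803 and 0.941 (F2), a ratio of 2.55. WDR44, a partner of the small GTPase Rab11, and CDK5R1, the activator of CDK5, had ratios of 2.53 and 2.13.

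The 7 genes of steroid, lipid, glucose and iron metabolism included carriers of cholesterol. TSPO, a cholesterol-binding protein of the outer mitochondrial membrane, gave 1.37, 1.64 and 1.74 (F1) and 9.04 and 9.03 (F2), a ratio of 5.74. Its F2 differed by 1.001-fold, and its gap of 5.19-fold to the nearest F1 was the widest of the 74 genes. STAR, which moves cholesterol into mitochondria for steroid synthesis, gave 5.56, 3.14 and 5.33 (F1) and 16.1 and 9.91 (F2), a ratio of 2.79. PLIN2, which coats lipid droplets, gave 7.69, 4.02 and 3.72 (F1) and 11.5 and 23.1 (F2), a ratio of 3.35. The F2 of STAR and PLIN2 differed in opposite directions, with replicate 1 higher in STAR and replicate 2 higher in PLIN2. SLC2A1, the glucose transporter GLUT1, measured 0.479, 0.457 and 0.217 (F1) and 1.48 and 1.07 (F2), a ratio of 3.48, and FABP3, a fatty acid-binding protein, measured 0.211, 0.109 and 0.160 (F1) and 0.496 and 0.246 (F2), a ratio of 2.26. LDHA, which interconverts pyruvate and lactate, had a ratio of 2.16. FTL, the light chain of ferritin, gave 9.06, 11 and 6.79 (F1) and 19.4 and 16.1 (F2), a ratio of 2.02. F1 replicate 2 was the lowest F1 in STAR, FABP3 and LDHA and the highest in FTL.

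STAR differed in direction from the genes of its list that passed the test. The list of cholesterol and steroid synthesis had 14 tested genes, which included the gonadotropin receptors FSHR and LHCGR. Of these 14, 0 were called higher in the F2 (1 at an unadjusted p under 0.05). Limma called 7 higher in the F1, FSHR and LHCGR among them, and the median log2 difference was -1.58. LHCGR was weak, at 0.0329, 0.0335 and 0.0352 in the F1, and well above background in neither F2. Its negative F2 signals were raised to 0.001 for the fit, and its difference is at least 2.18-fold. CYP17A1, the theca enzyme that makes androgen, measured 1.68, 2.56 and 3.11 in the F1, against 0.146 and 0.163 in the F2 (log2 change -3.95, SE 0.35, limma adjusted p = 0.00132). INSL3, a hormone from the theca marker list, measured 39.2, 78.2 and 44.7 in the F1, against 5.50 and 3.67 in the F2 (log2 change -3.52, SE 0.40, limma adjusted p = 0.00394). Its probe was saturated on 2 of the 3 F1 arrays, which can make this difference too small. CYP17A1 and INSL3 were both lower in each F2, in which STAR was higher. Of 5 tested genes of glycolysis and glucose transport, SLC2A1 was called higher in the F2 and 0 genes higher in the F1. The list of oxidative phosphorylation had 57 tested genes and none of the 74, with 2 called, each of them higher in the F1. GAPDH, the scale of all signals, is itself a glycolytic gene, and a change in its own level between F1 and F2 cannot be told apart from an opposite change of all other genes.

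Enzymes that modify small molecules or glycans were 4 in number. SULT1A1, a sulfotransferase of phenols and estrogens, gave 0.145, 0.204 and 0.154 (F1) and 0.801 and 0.694 (F2), a ratio of 4.51. FUT8, which adds core fucose to glycoproteins, gave 0.0444, 0.0571 and 0.0215 (F1) and 0.140 and 0.117 (F2), a ratio of 3.37, and ST3GAL5, which makes the ganglioside GM3, gave 0.0471, 0.0829 and 0.0602 (F1) and 0.183 and 0.157 (F2), a ratio of 2.75. ASMT, which catalyses the last step to melatonin, gave 0.0302, 0.0556 and 0.0287 (F1) and 0.0752 and 0.0859 (F2), a ratio of 2.21. With normexp the ratio of ASMT was 1.16, the lowest of the 74 genes. F1 replicate 2 was the highest F1 in all 4 genes. The remaining 2 of the 74 genes were NM_004995, with 0.576, 0.813 and 0.277 (F1) and 1.753 and 1.86 (F2), a ratio of 3.57, and NM_174839, with 1.13, 1.60 and 0.940 (F1) and 2.54 and 3.54 (F2), a ratio of 2.52. Again the highest F1 was replicate 2 in both.

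The 3 F1 did not contribute equally to the upper edge of the F1 range. F1 replicate 2 held the highest F1 signal in 54 of the 74 genes (73.0%), F1 replicate 1 in 15 and F1 replicate 3 in 5. Among the other 663 eligible genes F1 replicate 2 was highest in 275 (41.5%). On the 75th percentile scale these shares were 58.1% and 26.4%. It was highest in 9 of 11 cytoskeletal genes, 7 of 8 matrix genes and 7 of 8 signalling receptors and regulators, but in 1 of 7 metabolic genes, on the GAPDH scale. The spread between the highest and the lowest F1 had a median of 1.85-fold in the 74 genes and 1.47-fold in the other eligible genes. The rule used the highest F1 signal, so these shares carry no test.

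**Figure D3:**
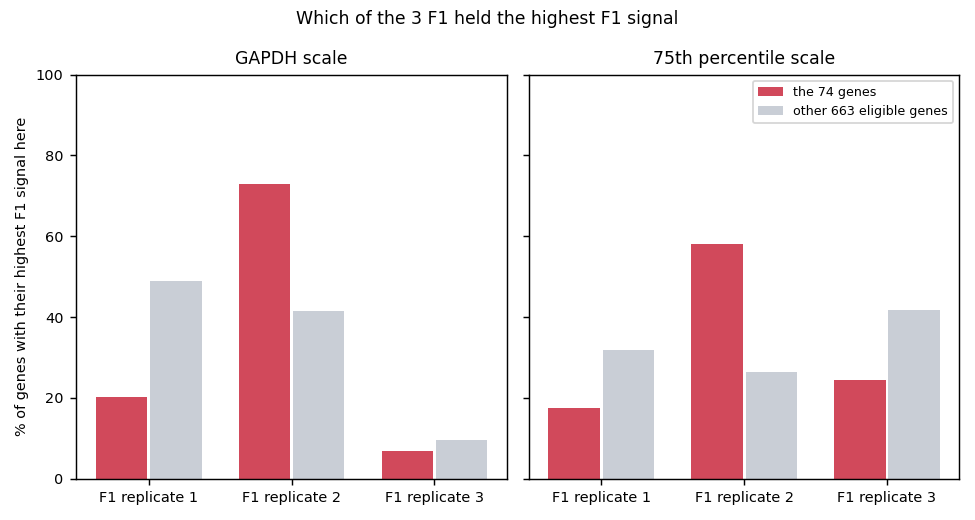
Share of genes (y axis, %) whose highest F1 signal was in each of the 3 F1 (x axis), for the 74 genes and the other 663 eligible genes, on the GAPDH scale (left) and the 75th percentile scale (right). F1 replicate 2 held 73.0% of the 74 genes on the left and 58.1% on the right, against 41.5% and 26.4% of the other genes.

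Between the F2, signals of the 74 genes differed by a median of 1.23-fold, against 1.29-fold in the other eligible genes. F2 replicate 2 was the higher in 45 of the 74 genes (60.8%) and in 74.96% of the others, but on the 75th percentile scale in 20 of the 74 (27.0%) and in 43.7% of the others, so which F2 was higher depended on the scale for many genes. In all 8 signalling receptors and regulators F2 replicate 2 was higher on the GAPDH scale, and in 5 of the 8 on the 75th percentile scale. In the metabolic genes F2 replicate 1 was higher in 6 of 7 on both scales, although in TSPO by only 1.001-fold on the GAPDH scale.

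A difference of 2-fold or more between the F2 was seen in 7 genes. NFKBIZ (2.82), PIM1 (2.65), CCN2 (2.07), STC1 (2.05), ZFP36 (2.04) and PLIN2 (2.01) were higher in F2 replicate 2, and FABP3 (2.02) in F2 replicate 1. On the 75th percentile scale the first 6 kept that direction at 2.19, 2.06, 1.61, 1.60, 1.59 and 1.56, and FABP3 was 2.60 times as high in F2 replicate 1. FOS, an immediate early gene outside the 74, differed in the same direction as NFKBIZ and ZFP36, with 0.785 in F2 replicate 1 and 6.85 in F2 replicate 2, and its F1 signals of 0.325, 2.83 and 1.09 overlapped the F2. PLAU, CD44 and STAR were next among the genes higher in F2 replicate 1, at 1.80, 1.84 and 1.63 times. With 2 follicles, a difference between them has no replicate.

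**Figure D4:**
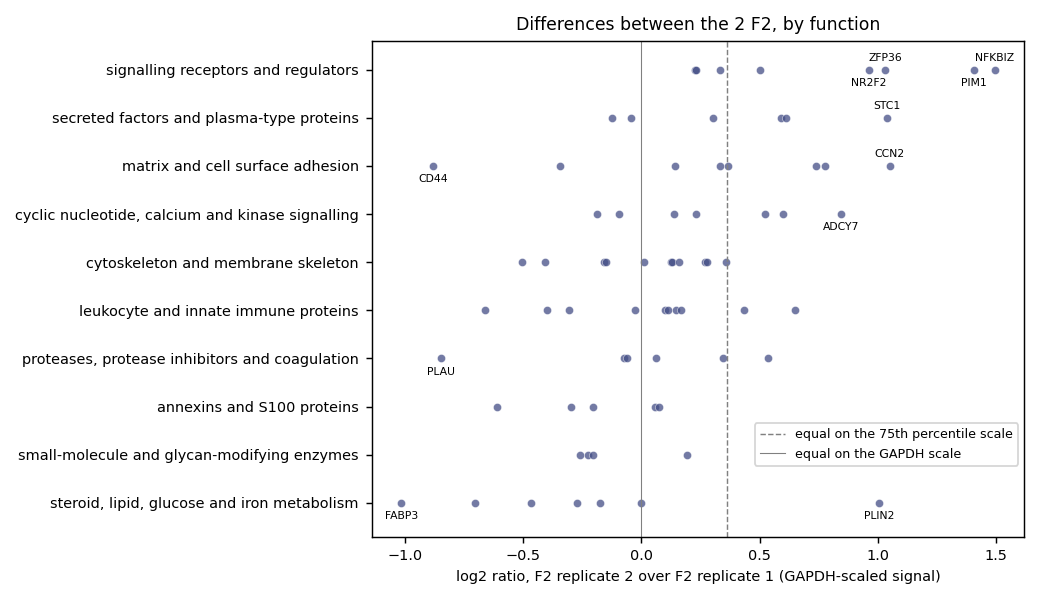
Log2 ratio of F2 replicate 2 over F2 replicate 1 on the GAPDH scale (x axis) for the 72 genes with a symbol, by function (y axis), each point 1 gene. The solid line marks equal signals on the GAPDH scale and the dashed line equal signals on the 75th percentile scale. The 8 signalling receptors and regulators lie to the right of the solid line, 5 of them also to the right of the dashed line, and 6 of the 7 metabolic genes lie left of the dashed line.

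The size of the ratios depended on the background correction. The main signals had the background subtracted by the scanner software. With the normexp correction and an offset of 50 intensity units added, all 74 ratios stayed above 1, but the median fell from 2.83 to 2.07 and 41 genes kept a ratio of 2 or more. In the 22 genes with an F1 geometric mean under 0.1 of the GAPDH median, the median ratio was 2.96 in the main values and 1.60 with normexp, and in the 52 brighter genes 2.83 and 2.41. The ratio moved by over 1.5 times in 27 genes. Of the functional groups, leukocyte and innate immune genes had the largest change of the median. It also fell from 3.06 to 1.49 in the enzymes of small molecules and glycans, from 3.30 to 2.09 in the cytoskeletal genes and from 3.21 to 1.98 in cyclic nucleotide, calcium and kinase signalling. Secreted factors and metabolic genes, at 2.62 and 2.60 with normexp, changed less. An offset pulls weak signals toward each other by its construction, so ratios of weak signals depended on it most. On the 75th percentile scale every ratio was larger by the same factor, with a median of 3.28.

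**Figure D5:**
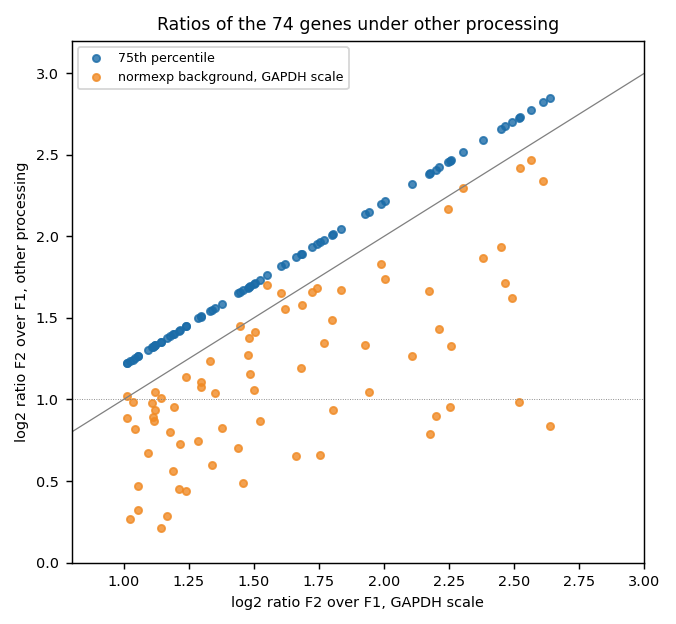
Log2 ratio of F2 over F1 of the 74 genes under other processing (y axis) against the main GAPDH-scaled values (x axis), each point 1 gene. The diagonal marks equal ratios and the dotted line a ratio of 2. With normexp all points stay above 0 and 33 fall below the dotted line, and with the 75th percentile all points lie above the diagonal.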

How the data were processed

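Total RNA of 3 F1 and 2 F2 was measured on 5 arrays, 1 follicle each. The authors scanned the arrays with an Agilent scanner and extracted the images with Feature Extraction, version 9.5.3.1 per the file headers, while the study's methods name another version. They deposited, per spot, the processed signal intensity after background subtraction, the mean and local background intensities, and flags. The authors also deposited a table of the ratio of each signal to the GAPDH median, used as an alternative. Processed signals were divided by the median of the 100 GAPDH spots, and for limma 3.58.1 (R 4.3.3) values under 0.001 were raised to it and log2 values taken, without a block. It tested the 5528 probes that were well above background throughout the F1 or throughout the F2, after a check on simulated data. Symbols came from a RefSeq gene table, which named 72 of the 74 genes and 1364 of 1415 accessions. The genes, functional groups, gene lists and tests were chosen with earlier results of these data known. Values in every follicle are given for up to 5 genes with the highest ratio per group, for groups of 3 or fewer, for families and for the genes nearest the limits of the rule. Genes outside the 74 were drawn from those with limma's adjusted p under 0.05, at most 3 per direction and list, or were marker genes, and FOS and COL1A2, like CCN2, TIMP3 and CD14 of the 74, were chosen after their values were seen. A gene that met this rule is not reported here. The alternatives were other scalings, normexp, the deposited ratio table, other limits and filters, a replicate block and leaving out each follicle.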

Additional observations from a re-analysis of the deposited data

How the results depend on the processing

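Of the 74 genes, 72 were also chosen with the 75th percentile, 72 with quantile normalization and all 63 that have a value in the authors' deposited table, and none had a ratio under 1 in any setting that gave it a value. The rule chose 48 genes with normexp and 34 with a lower limit of 3, and between 65 (without F1 replicate 3) and 95 (without F2 replicate 1) when 1 follicle was left out. Under normexp the median log2 ratio of the 74 genes was 1.05, against 1.502 in the main values and 1.71 with the 75th percentile. Limma called 634 probes in all, 214 with no filter on dim probes, and between 160 and 550 with 1 follicle left out (160 without F2 replicate 1, 200 without F2 replicate 2, 344 without F1 replicate 1). Its median log2 difference was -0.27, and -0.06 with the 75th percentile, under which 442 calls were toward the F2 and 421 toward the F1 instead of 281 and 353. With the replicate block it called 578 probes, 465 of them shared. The labels share replicate numbers between F1 and F2, but do not say that a number marks a cow, and deviations of same-numbered follicles correlated at 0.0390 and 0.13, so the numbers were not used as pairs. Of the 32 genes outside the 74 that met the naming rule, none changed direction in any setting, 2 were no longer called with the 75th percentile, 3 with the block, 19 without a filter, and 21 without F2 replicate 1. The cause of these losses was not tested. Precision is limited by the 5 arrays.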
